A study of Sparus aurata with 9 samples.

Results

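The comparison of Igf-1 with CTR asks which transcripts differ when insulin-like growth factor 1 is given to muscle cells of the gilthead sea bream (Sparus aurata) that have no amino acids. Its libraries were taken by their labels, 3 of the Igf-1 group and 3 of the CTR group, which makes 6 of the 9 libraries of the series. Every gene of the deposited count table was considered, 27159 in all, of which 17082 carry a symbol and 17687 had enough counts to be tested. The cells were primary cultures from the fast muscle of fingerlings, at day 8 a mixture of dividing and fusing myoblasts. Cells of both groups, and of AA, were first deprived of amino acids for 12 h. The Igf-1 cells then received recombinant sea bream Igf-1 for 24 h in the medium without amino acids, and the CTR cells stayed in that medium, so both had 36 h of restriction. The cells of the other group, AA, received medium with amino acids for those 24 h. They enter here through the estimate of the spread, which all 9 libraries share, and through values set beside those of Igf-1. Bovine serum albumin, the carrier, is described for the Igf-1 medium and not for that of CTR, so hormone and carrier cannot be told apart. The study worked with 3 independent cultures without stating the culture behind each library, so the p-values measure the spread between these libraries.

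Igf-1 is the hormone through which growth hormone acts on much of the body, and it is also made by muscle itself. It binds a receptor tyrosine kinase, which through adaptors of the Irs and Shc families activates the PI3K, Akt and mTOR pathway on one side and the Ras and MAPK pathway on the other. Akt holds FoxO transcription factors outside the nucleus and mTOR complex 1 promotes protein synthesis, a step for which it also needs amino acids. Igf binding proteins, secreted by many cells, hold the ligand or carry it. In fish as in mammals Igf-1 is known for promoting both the proliferation and the differentiation of myoblasts.

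A normalized count here is the deposited count divided by the effective size of its library and multiplied by the mean effective size, and it depends on transcript length, so that it compares libraries and not genes. About 4 counts stand for 1 sequenced read pair, as inferred from the values. The deposited counts summed to between 65652929 and 67887824 in the Igf-1 libraries, against between 51598127 and 61499074 in the CTR libraries. CTR replicate 3 stood apart: its root mean square distance on the log2 scale was 1.15 to CTR replicates 1 and 2, which were 0.785 apart, whereas the Igf-1 libraries lay 0.741 to 0.833 from each other. Medians and counts of non-overlapping genes without it are given beside many of the lists of genes below. The plot of the gene lists shows the medians without it for all lists but those of cell type markers. All 24 matched skeletal muscle markers were tested, with summed normalized counts of 1142550.0 to 1437240.0 in the Igf-1 libraries and 793135 to 1301980.0 in the CTR libraries. The ranges overlap through CTR replicate 3 alone, the sums of CTR replicates 1 and 2 being 793135 and 803611. Of these 24 markers 21 had a positive log2 fold change, with a median of 0.31 (0.54 without CTR replicate 3). Igf-1 lay above CTR without overlap in 6 of the 24 (25.0%, against 9.35% of all genes) and below in 2 (8.33%, against 7.88%). Without CTR replicate 3 it lay above in 17 of the 24, where 17.8% of all genes did. The myogenic factors myod1, myf5 and myog were present in all 6 libraries, and myf6 was near 0, at no more than 42.8 normalized counts. The 15 fibroblast markers summed to 878522 to 922094 in the Igf-1 libraries and 756460.0 to 897775 in the CTR libraries. Again only CTR replicate 3 reached the Igf-1 range, CTR replicates 1 and 2 being at 852486 and 756460.0. Most of each fibroblast sum came from the collagen genes col1a1a, col1a1b and col1a2 and from postnb. Of the 14 tested fibroblast markers, Igf-1 lay above CTR without overlap in 3 (21.4%, against 9.35% of all genes). It lay below in 2, fap and twist1b (14.3%, against 7.88%), and the median log2 fold change of the 14 was 0.05. The sums of the leukocyte, pigment cell, neural and adipocyte markers overlapped between the groups with and without CTR replicate 3, at no more than 43805 per library, and NEFL, elavl3, elavl4 and neurod1 of the neural list were at 0 in all 6 libraries. Most of each pigment cell sum was gpnmb, at 22018.5 to 36202 in the Igf-1 libraries and 27851 to 35780 in the CTR libraries. Of the 22 tested pigment cell markers, Igf-1 lay above CTR without overlap in 3 (13.6%, against 9.35% of all genes). It lay below in 2 (9.09%, against 7.88%). The sums of the 16 endothelial markers did not overlap, at 6144 to 6796 in the Igf-1 libraries and 7095 to 9103 in the CTR libraries, but this order came from plvapb, a downregulated gene. Without it, an alternative chosen after the data were seen, the other 15 summed to 5333 to 5996 in the Igf-1 libraries and 3937 to 4514 in the CTR libraries. In such cultures fewer cells of a type and less RNA per cell cannot be told apart.

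In the quasi-likelihood test of edgeR, genes counted as upregulated or downregulated had an adjusted p no higher than 0.05 and differed by 1 or more on the log2 scale. Igf-1 upregulated 25 genes (0.141% of those tested) and downregulated 21 (0.119%) relative to CTR, 46 genes in all (0.260%). Values after ± are standard errors of the log2 fold change, with 3 libraries a group. Without the fold threshold 26 genes were higher (0.147%) and 24 lower (0.136%), the added ones being cpz, higher by 0.87 on the log2 scale, and lipg, pprc1 and sptlc2b, at -0.92, -0.80 and -0.73. At an unadjusted p under 0.05 there were 896 higher (5.07%) and 715 lower (4.04%) genes. The 46 genes had a median difference of 1.58 in size on the log2 scale, and in each of them the 3 Igf-1 libraries lay all above or all below the 3 CTR libraries. Over all genes tested, 9.35% had such groups with Igf-1 higher and 7.88% with Igf-1 lower. The 46 were picked by p and size in the same libraries, so their separation follows largely from that choice. Counts of list members by DESeq2, run as an alternative, use the adjusted p alone. At that threshold DESeq2 called 1.42% of all genes higher and 1.34% lower. The counts of list members below are to be read beside the shares of all genes given in this paragraph.

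**Figure D1:**
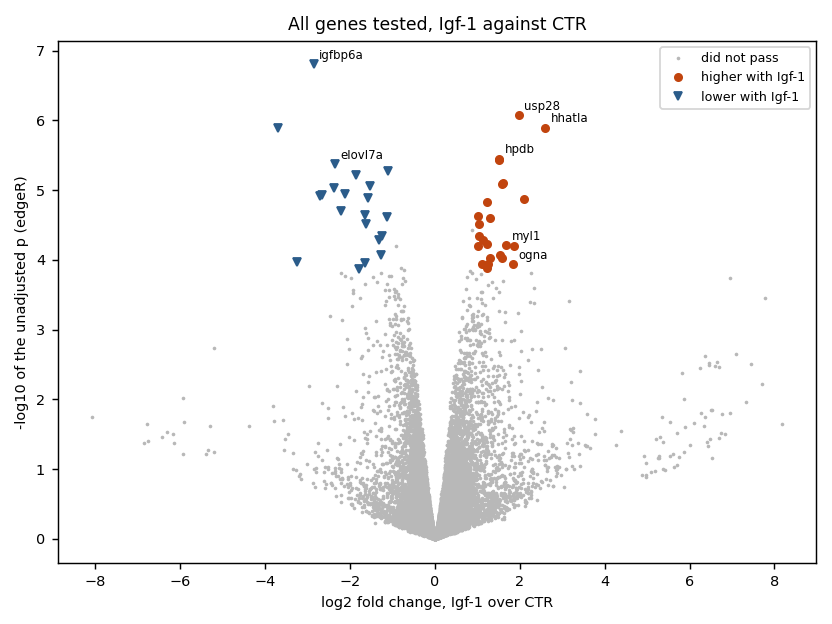
All genes tested, with the log2 fold change of Igf-1 over CTR on the x axis and −log10 of the edgeR p-value on the y axis; coloured points are the upregulated and downregulated genes, and the gene at 0 in every CTR library is not drawn. The 21 downregulated genes include igfbp6a, which has the smallest p of all, and the 25 upregulated ones include usp28 and hhatla.

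Most of these calls were lost without CTR replicate 2 or without any 1 of the Igf-1 replicates. Without Igf-1 replicate 1, 2 or 3 the test called 8, 3 and 7 genes, of which 7, 3 and 7 were among the 46. Without CTR replicate 1 it called 37 (28 of the 46), without CTR replicate 2 a single gene, igfbp6a, and without CTR replicate 3 it called 58 (35 of the 46). Leaving out AA replicates 1, 2 or 3 gave 23, 48 and 57 genes, of which 23, 42 and 45 were among the 46. Of the 46, igfbp6a passed in all 9 of these fits, and usp28 and hhatla in 8, their adjusted p being 0.0527 and 0.0533 without CTR replicate 2. The direction of none of the 46 changed in any of them. Since the groups lay apart in each of the 46, this was largely fixed in advance. DESeq2 gave 208 genes past the same thresholds, 125 higher (0.707%) and 83 lower (0.469%), and 45 of the 46 were among them. With the replicate number as a block, edgeR called 0 genes. Fitted to Igf-1 and CTR alone it called 21, of which 20 were among the 46.

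**Figure D2:**
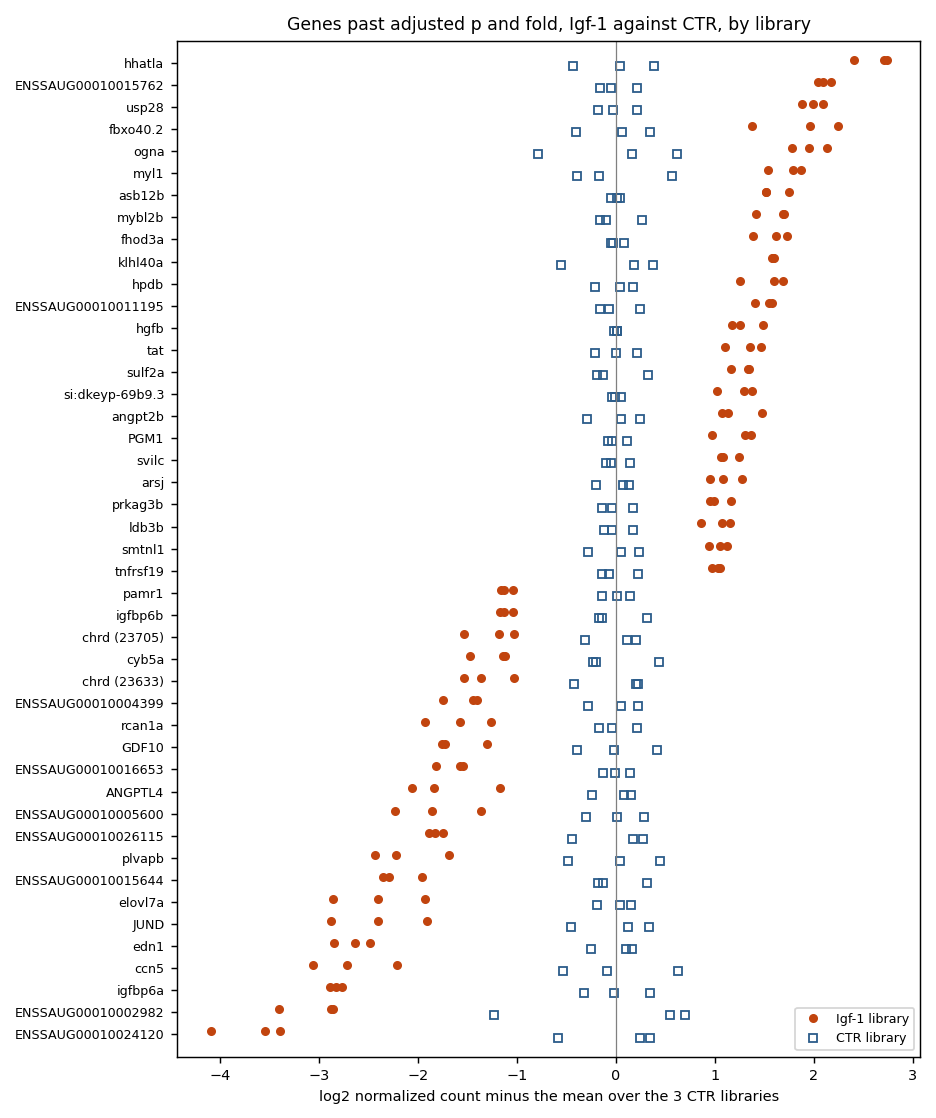
The upregulated and downregulated genes by library, apart from the gene at 0 in all CTR libraries. Each row is a gene, and each point is the log2 normalized count of 1 library relative to the mean of the 3 CTR libraries, with Igf-1 and CTR libraries in separate colours; in every row the groups lie apart.

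The gene with the smallest p in the table was a binding protein of the Igf system. igfbp6a, which the file describes as an Igf binding protein 5 and which belongs by its symbol to the Igfbp-6 family, known in mammals to prefer Igf-2 to Igf-1, had 1068, 1021 and 1113 in the Igf-1 libraries, against 6073, 7467 and 9578 in the CTR libraries (normalized counts). The lowest CTR value was several times the highest Igf-1 value. Its levels were 7.22 times as high in CTR as with Igf-1 (log2 fold change -2.85 ± 0.23, adjusted p = 0.00279), and with 1 library left out its adjusted p ranged from 0.00119 to 0.0450. The related igfbp6b had 1879.6, 1755 and 1718 in the Igf-1 libraries, against 3418, 4792 and 3507 in the CTR libraries (log2 fold change -1.13 ± 0.16, adjusted p = 0.0184), and so was downregulated too, but it passed in 4 of the 9 fits with 1 library left out, and not without CTR replicate 2, AA replicate 1 or any of the Igf-1 replicates.

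Both were among the 29 tested genes of the Igf system list (36 matched), of which 2 were lower and 0 higher at the adjusted p. At the unadjusted p 2 were lower and 1 higher, and DESeq2 called 2 lower and 0 higher, where over all genes it called 1.34% lower and 1.42% higher at the adjusted p alone. The median log2 fold change was -0.13 over the list (-0.26 without CTR replicate 3) and -0.0045 over all genes tested. With 1 library left out the list's median lay between -0.28 and 0.04. The gene higher at the unadjusted p was igfbp2a, at low counts of 69.0, 77.0 and 28.9 in the Igf-1 libraries, against 28.5, 16.5 and 21.7 in the CTR libraries (log2 fold change 1.38 ± 0.43, adjusted p = 0.278). Of the other binding proteins, which hold or deliver the ligand, IGFBP5 and igfbp5a stood at 0.57 ± 0.37 and 0.54 ± 0.38, and igfbp3, IGFBP4 and igfbp7 lay between -0.24 and 0.15, none near the threshold. The binding protein gene igfbp1a is not reported here. The receptors igf1ra and igf1rb were at -0.34 ± 0.59 and -0.19 ± 0.62 on the log2 scale, insra and insrb at -0.09 ± 0.13 and -0.55 ± 0.95, and igf2r at -0.43 ± 0.72; all 5 receptor values were below 0 and none passed. The median of the 5 receptors was -0.34. With 1 library left out it lay between -0.80 and -0.08, the lowest being without CTR replicate 3. Without that replicate 4 of the 5 had all Igf-1 libraries below the CTR libraries that remained, as did 17.2% of all genes tested (17.8% lay above). The adaptors irs2a and irs2b stood at -0.47 ± 0.39 and -0.06 ± 0.17. The 49 genes of PI3K, Akt and mTOR signalling had a median of -0.12 (-0.21 without CTR replicate 3); none passed the adjusted p with edgeR or DESeq2, and 1 was higher and 1 lower at the unadjusted p.

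Several other downregulated genes encode secreted, membrane or signalling proteins. ccn5, a matricellular protein of the Ccn family, had 249.7, 198 and 356 in the Igf-1 libraries, against 1137, 2542 and 1540.5 in the CTR libraries (log2 fold change -2.70 ± 0.35, adjusted p = 0.0130). Its CTR levels varied more than its Igf-1 levels and the groups lay far apart. edn1, the peptide endothelin 1, a vasoconstrictor, had 149, 116 and 135 in the Igf-1 libraries, against 701, 894 and 933 in the CTR libraries (log2 fold change -2.66 ± 0.34, adjusted p = 0.0130). plvapb, known in mammals as a protein of the diaphragms of endothelial fenestrae and caveolae, had 703, 811 and 1178 in the Igf-1 libraries, against 2706, 3915 and 5166 in the CTR libraries (log2 fold change -2.13 ± 0.27, adjusted p = 0.0130), the CTR levels being 4.38 times those with Igf-1. ANGPTL4, a secreted inhibitor of lipoprotein lipase, had 8744, 10151 and 16208 in the Igf-1 libraries, against 30814, 38624 and 40533 in the CTR libraries (log2 fold change -1.65 ± 0.27, adjusted p = 0.0448). It passed in 2 of the 9 fits with 1 library left out, those without AA replicate 2 or AA replicate 3. pamr1, a peptidase-domain protein named for its link to muscle regeneration, had 3325, 3045 and 3112 in the Igf-1 libraries, against 6869.8, 6181 and 7525 in the CTR libraries (log2 fold change -1.12 ± 0.13, adjusted p = 0.0117). plvapb passed in 6 of the 9 fits, and ccn5, edn1 and pamr1 in 5. All 4 were lost without CTR replicate 2 or Igf-1 replicates 1 or 2, and ccn5, edn1 and pamr1 also without Igf-1 replicate 3, with adjusted p-values of up to 0.123.

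Genes of Tgf-beta and Bmp signalling were among the downregulated ones as well. GDF10, a ligand of the Tgf-beta superfamily, had 437, 448 and 598 in the Igf-1 libraries, against 1125, 1971 and 1461 in the CTR libraries (log2 fold change -1.62 ± 0.23, adjusted p = 0.0211). The Bmp antagonist chordin is represented by a pair of genes, and reads that fit both could have been divided between them in counting, so their values are uncertain. chrd (ENSSAUG00010023633) had 3313, 2933 and 4168 in the Igf-1 libraries, against 6323, 9953 and 9802 in the CTR libraries (log2 fold change -1.32 ± 0.20, adjusted p = 0.0286). The other chrd (ENSSAUG00010023705) had 2660.1, 3776 and 3405 in the Igf-1 libraries, against 6197, 8876 and 8358 in the CTR libraries (log2 fold change -1.25 ± 0.19, adjusted p = 0.0272). All 3 were lost without CTR replicate 2, AA replicate 1 or any Igf-1 replicate, with adjusted p-values of up to 0.197. The 63 tested genes of the list gave 3 lower and 0 higher ones at the adjusted p, 8 and 4 at the unadjusted p, and 5 and 1 with DESeq2. Its median was -0.07, and -0.15 without CTR replicate 3. Of the ligands the study follows, tgfb3 (ENSSAUG00010003964) had 3544, 3631 and 4441 in the Igf-1 libraries, against 5983, 8925 and 7139 in the CTR libraries (log2 fold change -0.92 ± 0.17, adjusted p = 0.0608), without overlap of the groups and with a p short of the threshold. tgfb2, tgfb5 and tgfb1a were at -0.94 ± 0.42, -0.74 ± 0.35 and -0.07 ± 0.15 on the log2 scale, with adjusted p-values of 0.542, 0.574 and 0.977. Another gene, TGFB3 (ENSSAUG00010009390), shares the name of tgfb3 and is not reported here.

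The transcription factors among the downregulated genes belong to families that answer to kinases and second messengers. JUND, a subunit of the AP-1 factor, had 223, 160.5 and 314 in the Igf-1 libraries, against 865, 1489 and 1286 in the CTR libraries (log2 fold change -2.38 ± 0.30, adjusted p = 0.0128), and CTR levels were 5.21 times those with Igf-1. A second gene named jund is in the table, and how reads that fit both were divided is uncertain. ENSSAUG00010026115, described as similar to the cAMP-responsive element modulator, had 1275, 1224 and 1348 in the Igf-1 libraries, against 3317, 5482 and 5091 in the CTR libraries (log2 fold change -1.85 ± 0.22, adjusted p = 0.0119). rcan1a, which encodes an inhibitor of the phosphatase calcineurin, had 1645, 1324 and 1043 in the Igf-1 libraries, against 3845, 4585 and 3519.9 in the CTR libraries (log2 fold change -1.57 ± 0.20, adjusted p = 0.0130). These 3 calls were lost without CTR replicate 2 or Igf-1 replicate 2, JUND and the modulator also without Igf-1 replicate 1, and the modulator and rcan1a without Igf-1 replicate 3, the largest adjusted p being 0.123. Of the 52 tested immediate early and feedback genes of the MAPK pathway, JUND was the only one past the adjusted p, 10 were lower and 1 higher at the unadjusted p, and DESeq2 called 6 lower and 0 higher. The Igf-1 libraries lay below all CTR libraries in 12 of them (23.1%, against 7.88% of all genes) and above in 1, and the median was -0.18. The AP-1 subunit genes fosab and fosl1a had log2 fold changes of -1.09 ± 0.20 and -0.78 ± 0.14 with adjusted p-values of 0.0603 and 0.0548. egr1, ccn1 and ccn2a, chosen after their values were seen, stood at 0.27 ± 0.15, -0.96 ± 0.22 and -0.90 ± 0.23.

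Several upregulated genes are known from muscle. myl1, an essential light chain of fast muscle myosin, had 3788, 4797 and 4508 in the Igf-1 libraries, against 999, 1162 and 1935 in the CTR libraries (log2 fold change 1.68 ± 0.26, adjusted p = 0.0302), a 3.20-fold difference. fhod3a, a formin that assembles actin in the sarcomere in mammals, had 613, 662 and 521 in the Igf-1 libraries, against 194, 211 and 196 in the CTR libraries (log2 fold change 1.58 ± 0.19, adjusted p = 0.0128). ldb3b, of a Z-disc protein family, had 2830.3, 3292 and 3472 in the Igf-1 libraries, against 1517, 1433 and 1754 in the CTR libraries (log2 fold change 1.03 ± 0.15, adjusted p = 0.0272). In all 3 the lowest Igf-1 library was above the highest CTR library. klhl40a, a kelch protein that stabilizes thin filament proteins in mammals, had 574, 575 and 581 in the Igf-1 libraries, against 218, 131 and 248 in the CTR libraries (log2 fold change 1.53 ± 0.25, adjusted p = 0.0383), its Igf-1 libraries nearly equal. hhatla, known in mammals as a muscle protein of the sarcoplasmic reticulum, had 209, 169.8 and 213 in the Igf-1 libraries, against 23.7, 33.0 and 41.9 in the CTR libraries (log2 fold change 2.59 ± 0.26, adjusted p = 0.00568). ENSSAUG00010015762, described as alpha kinase 3, which in mammals is a protein of the sarcomere, had 155, 147 and 142 in the Igf-1 libraries, against 39.9, 30.8 and 33.2 in the CTR libraries (log2 fold change 2.09 ± 0.27, adjusted p = 0.0130). The myocardin-like si:dkeyp-69b9.3, of a family of coactivators of serum response factor, had 3372, 2795 and 3573 in the Igf-1 libraries, against 1424, 1368 and 1339.8 in the CTR libraries (log2 fold change 1.24 ± 0.16, adjusted p = 0.0140). The groups were apart in these 4 as well.

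Of these, hhatla was lost only without CTR replicate 2. The others were lost without CTR replicate 2 or any Igf-1 replicate, and myl1, ldb3b and klhl40a also without CTR replicate 1 or AA replicate 1 and the myocardin-like gene without CTR replicate 1, with adjusted p-values of up to 0.197. smtnl1, a smoothelin-like regulator of contraction, and svilc, of the actin- and myosin-binding supervillins, were upregulated at 1.02 ± 0.16 and 1.12 ± 0.17 with adjusted p-values of 0.0302 and 0.0286, and passed in 3 and 4 of the 9 fits. Both were lost without CTR replicate 2 or any Igf-1 replicate, smtnl1 also without CTR replicate 3 or AA replicate 1, and svilc without CTR replicate 1.

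Most genes of the contractile apparatus lay higher with Igf-1, 67 of 84 tested. Of these 84 sarcomere genes, 4 were higher at the adjusted p (those given above) and 0 lower, 30 and 2 at the unadjusted p, and 18 and 1 with DESeq2. The Igf-1 libraries lay above all CTR libraries in 33 of the 84 (39.3%, against 9.35% of all genes) and below them in 2. The median log2 fold change was 0.43, and between 0.36 and 0.53 with 1 library left out. By role it was 0.55 in 22 thick filament genes, 0.45 in 29 Z-disc and scaffold genes, 0.43 in 21 thin filament genes and 0.27 in 12 assembly factors. Relative to the mean of the CTR libraries, the list's median was 0.29, 0.52 and 0.53 in the Igf-1 libraries, against -0.16, -0.05 and 0.20 in the CTR libraries. CTR replicate 3 was the CTR library nearest to Igf-1, and without it the median difference was 0.53 and 51 of the 84 lay higher without overlap, against 17.8% of all genes. The summed skeletal muscle markers stood at 1142550.0 to 1437240.0 in the Igf-1 libraries and 793135 to 1301980.0 in the CTR libraries. They include contractile genes such as ACTA1 and myl1 that are also in this list, so the sums are not a separate measure of muscle cells. The part of the share of muscle cells in this list was not tested.

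Among the sarcomere genes below the threshold of size or p, ACTA1 (ENSSAUG00010015572), a skeletal actin, had 101379, 102146 and 102919 in the Igf-1 libraries, against 44099, 32087 and 65174 in the CTR libraries (log2 fold change 1.12 ± 0.28, adjusted p = 0.145). The troponin T gene tnnt2c had 5531, 6489.8 and 5678 in the Igf-1 libraries, against 2302, 2257 and 3755 in the CTR libraries (log2 fold change 1.09 ± 0.21, adjusted p = 0.0650), and without CTR replicate 3 its adjusted p was 0.0178. The Z-disc gene myoz1b and the troponin I gene TNNI2 stood at 1.08 ± 0.23 and 0.62 ± 0.29, with adjusted p-values of 0.0970 and 0.570. In the second ACTA1 (ENSSAUG00010001996) the groups overlapped, at 0.18 ± 0.25.

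Of 55 tested genes of excitation-contraction coupling, hhatla was the only one past the adjusted p, 20 were higher and 1 lower at the unadjusted p, and DESeq2 called 8 higher and 0 lower. Igf-1 was above all CTR libraries in 23 of them (41.8%, against 9.35% of all genes) and below in 3 (5.45%, against 7.88%). The median was 0.40 (0.45 without CTR replicate 3), and the muscle marker sums given above stand beside this list too. The calcium pump atp2a1 and the calcium channel subunit cacna1sb stood at 0.89 ± 0.19 and 0.79 ± 0.16 with adjusted p-values of 0.0920 and 0.0722. stac3 (ENSSAUG00010009971), which helps place that channel, had 4343, 4428 and 3962 in the Igf-1 libraries, against 2584, 1843 and 1037 in the CTR libraries (log2 fold change 1.22 ± 0.27, adjusted p = 0.108). Another gene, STAC3 (ENSSAUG00010022700), carries the same name and is not reported here. The acetylcholine receptor subunit CHRNA1 (ENSSAUG00010024777) had a negative value, -0.65 ± 0.24. In the other chrna1 (ENSSAUG00010004697) the groups overlapped. It had 5006, 4436 and 4245 in the Igf-1 libraries, against 4064, 4594 and 4528 in the CTR libraries.

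Regulators of myogenesis had a smaller median. None of their 73 tested genes passed the adjusted p, 7 were higher and 1 lower at the unadjusted p, and DESeq2 called 2 higher and 0 lower. The median was 0.18, between 0.15 and 0.21 with 1 library left out. Igf-1 was above all CTR libraries in 17 of the 73 (23.3%, against 9.35% of all genes) and below in 3 (4.11%, against 7.88%). The RNA-binding protein gene rbm24b, the Notch target HEY1 and the chemokine receptor cxcr4a were at 1.00 ± 0.19, 1.05 ± 0.24 and 1.00 ± 0.31, with adjusted p-values of 0.0650, 0.121 and 0.273. myod1 (ENSSAUG00010004893), a determination factor of muscle, had 4468, 4262 and 4394 in the Igf-1 libraries, against 3566, 3677 and 4083 in the CTR libraries (log2 fold change 0.21 ± 0.13, adjusted p = 0.730).

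**Figure D3:**
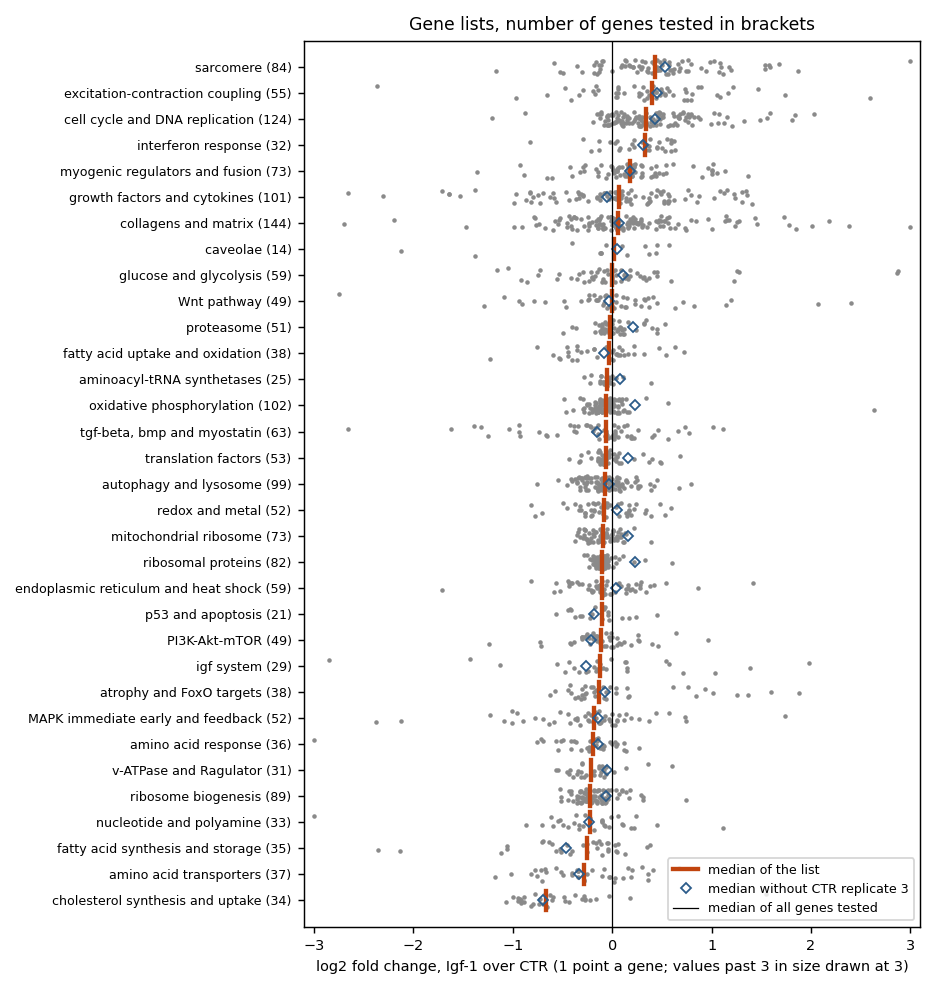
The log2 fold change of Igf-1 over CTR (x axis) of the tested members of each list (points, 1 row per list), with the list's median as a bar, its median without CTR replicate 3 as a diamond and the median of all genes tested as a line. The cell type marker lists are not drawn. The cholesterol list has the lowest median, -0.67, and the sarcomere list is at 0.43. Diamonds and bars lie on different sides of 0 in several lists. Among them are the ribosomal protein, oxidative phosphorylation, mitochondrial ribosome, translation factor and proteasome lists. With the marker lists counted, 11 of the 40 lists changed sign, among them the adipocyte markers.

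Enzymes that attach ubiquitin to proteins or remove it, some of them known from muscle, stood among the upregulated genes. usp28, a deubiquitinating enzyme, had 1656, 1545 and 1429 in the Igf-1 libraries, against 449.8, 341 and 379.7 in the CTR libraries (log2 fold change 1.98 ± 0.19, adjusted p = 0.00568), 3.95-fold higher with Igf-1. fbxo40.2, of an F-box protein that in mouse muscle cells promotes the degradation of the adaptor Irs1, had 299, 546 and 448 in the Igf-1 libraries, against 121, 87.0 and 146 in the CTR libraries (log2 fold change 1.87 ± 0.29, adjusted p = 0.0302). Its paralog fbxo40.1 had 241, 268 and 289 in the Igf-1 libraries, against 104, 57.3 and 149 in the CTR libraries (log2 fold change 1.37 ± 0.38, adjusted p = 0.207) and did not pass, although its groups were apart like those of fbxo40.2. asb12b, which carries the SOCS box of a ligase subunit, had 861, 733 and 735 in the Igf-1 libraries, against 249, 263 and 258 in the CTR libraries (log2 fold change 1.60 ± 0.19, adjusted p = 0.0128). On the other side, ENSSAUG00010004399, described as a NEURL3-like ligase, was downregulated, with 3477, 4278 and 4408 in the Igf-1 libraries, against 9618, 12131 and 13659 in the CTR libraries (log2 fold change -1.54 ± 0.19, adjusted p = 0.0128). Except for usp28, these calls were lost without CTR replicate 2 or any Igf-1 replicate, and fbxo40.2 also without CTR replicate 1 or AA replicate 1, with adjusted p-values of up to 0.197.

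The list of atrophy and FoxO target genes, which holds fbxo40.2 and asb12b, gave 2 higher and 0 lower of 38 tested at the adjusted p, 7 and 2 at the unadjusted p, and 3 and 0 with DESeq2, and its median was -0.13 (-0.08 without CTR replicate 3). The 18 ubiquitin ligases in it had a median of 0.0070. Igf-1 lay above CTR without overlap in 7 of these 18 (38.9%, against 9.35% of all genes) and below in 1. The 20 other FoxO targets had a median of -0.22, with 1 above and 3 below without overlap. The ligases best known from muscle wasting in mammals, fbxo32 and trim63a, which were chosen after their values were seen, had log2 fold changes of -0.58 ± 0.18 and 0.84 ± 0.26, with adjusted p-values of 0.266 and 0.277. fbxo32 had 1846, 1726 and 1168 in the Igf-1 libraries, against 2345, 2222 and 2515 in the CTR libraries, and trim63a had 1401, 2083 and 2124 in the Igf-1 libraries, against 917, 823 and 1393 in the CTR libraries.

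Genes of cell division and DNA replication lay mostly higher with Igf-1, 104 of 124 tested, and 1 passed the threshold. mybl2b, a transcription factor of dividing cells, had 95.2, 115 and 116 in the Igf-1 libraries, against 42.7, 31.9 and 33.2 in the CTR libraries (log2 fold change 1.59 ± 0.26, adjusted p = 0.0403), and passed in none of the 9 fits with 1 library left out, where its adjusted p ranged from 0.0525 to 0.214. It was the only one of the 124 past the adjusted p, 34 were higher and 0 lower at the unadjusted p, and DESeq2 called 10 higher and 0 lower. The Igf-1 libraries lay above all CTR libraries in 35 of the 124 (28.2%, against 9.35% of all genes) and below in none. The share was 20 of 45 replication genes, 14 of 57 mitosis genes and 1 of 22 regulators of G1 and S phase. The median was 0.34 over the list and 0.44 over the replication genes. By library, relative to the CTR mean, the list's median was 0.41, 0.44 and 0.37 in the Igf-1 libraries, against -0.02, -0.15 and 0.21 in the CTR libraries, where CTR replicate 3 was again nearest. Without it the list's median was 0.43 and 58 of the 124 lay higher without overlap, against 17.8% of all genes.

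Of the replication genes, mcm5, a subunit of the replicative helicase, had 842, 985 and 1129 in the Igf-1 libraries, against 409, 444 and 629 in the CTR libraries (log2 fold change 1.00 ± 0.21, adjusted p = 0.0886). Its partners mcm2, mcm3 and mcm4 and the sliding clamp PCNA, chosen after their values were seen, stood at 0.61 ± 0.17, 0.80 ± 0.20, 0.71 ± 0.18 and 0.23 ± 0.22. top2a, the topoisomerase of dividing cells, was at 1.07 ± 0.26 (adjusted p = 0.131 with edgeR), and the mitotic cyclins ccnb1 and ccna2, also chosen after their values were seen, were at 0.86 ± 0.26 and 1.02 ± 0.31. With amino acids in place of Igf-1, the same list had a median of 2.10 over CTR.

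Cells make cholesterol from acetyl-CoA by way of mevalonate, isoprenoids and squalene, under the transcription factor that srebf2 encodes. Genes of this list lay mostly lower with Igf-1, and none passed the adjusted p. Of 34 tested genes of cholesterol synthesis and uptake, 0 were lower or higher at the adjusted p with edgeR, 18 were lower and 0 higher at the unadjusted p, and DESeq2 called 13 lower and 0 higher. The Igf-1 libraries lay below all CTR libraries in 19 of the 34 (55.9%, against 7.88% of all genes) and above in none, and 32 of the 34 log2 fold changes were negative. The median was -0.67, between -0.74 and -0.54 with 1 library left out. By library, relative to the CTR mean, it was -0.67, -0.61 and -0.63 in the Igf-1 libraries, against -0.18, 0.0021 and 0.16 in the CTR libraries, so the groups were apart by more than either varied. With amino acids the same list had a median of 0.27 over CTR.

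**Figure D4:**
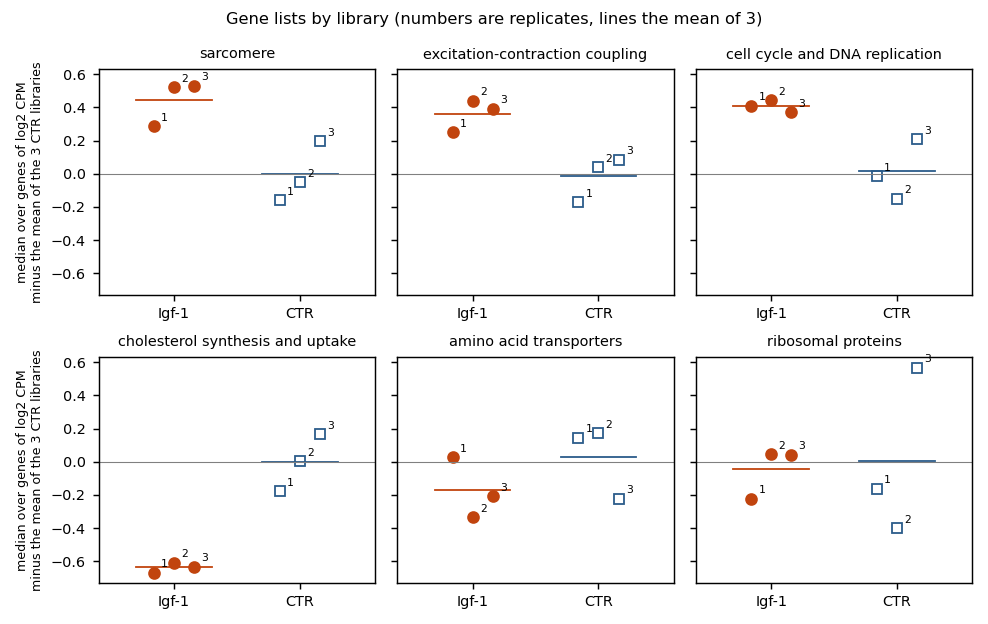
Medians of 6 lists in each library, as log2 normalized counts minus the mean of the 3 CTR libraries (y axis), with the Igf-1 libraries left of the CTR libraries in each panel. The Igf-1 points of the cholesterol list, at -0.67, -0.61 and -0.63, lie below the CTR points, those of the cell cycle list above them, and in the ribosomal protein list CTR replicate 3, at 0.57, lies above all other points.

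Along the pathway, the early enzyme acat2, which joins acetyl-CoA units, had 1072, 1071 and 1208 in the Igf-1 libraries, against 1808, 2019.8 and 3233 in the CTR libraries (log2 fold change -1.07 ± 0.23, adjusted p = 0.0915). Next, idi1, which makes an isoprenoid unit, had 2544, 2994 and 3084 in the Igf-1 libraries, against 5235, 5728 and 6236 in the CTR libraries (log2 fold change -0.996 ± 0.21, adjusted p = 0.0915), and fdft1, which makes squalene, had 1773, 1775 and 1741 in the Igf-1 libraries, against 2714, 3159.7 and 3440.5 in the CTR libraries (log2 fold change -0.82 ± 0.16, adjusted p = 0.0650). In each, all Igf-1 libraries were lower than all CTR libraries. hmgcs1, fdps, sqlea, cyp51 and nsdhl, enzymes before and after squalene that were chosen after their values were seen, stood at -0.48 ± 0.35, -0.89 ± 0.23, -0.92 ± 0.22, -0.89 ± 0.21 and -0.93 ± 0.20. The low-density lipoprotein receptor ldlrb and the regulator srebf2, chosen in the same way, were at -0.80 ± 0.18 and -0.68 ± 0.28.

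**Figure D5:**
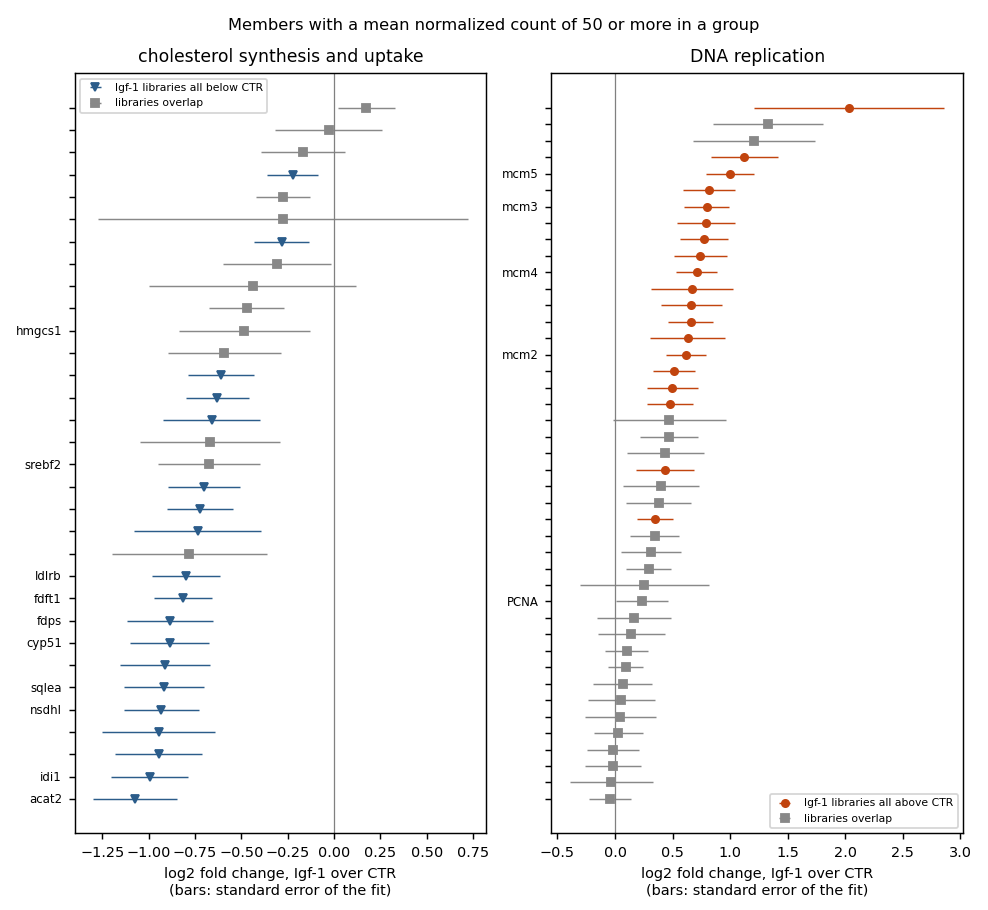
Log2 fold change of Igf-1 over CTR, with its standard error as a bar, for the tested genes of cholesterol synthesis and uptake and of DNA replication with a mean normalized count of at least 50; only genes given in the text or named by the rule carry a label. Cholesterol genes such as acat2 at -1.07 and idi1 at -0.996 lie left of 0 and replication genes such as mcm5 at 1.00 right of it.

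Single genes of other lipid pathways were downregulated. elovl7a, which lengthens fatty acids, had 127, 173 and 239.9 in the Igf-1 libraries, against 801, 941 and 1021 in the CTR libraries (log2 fold change -2.36 ± 0.27, adjusted p = 0.0108), 5.12 times higher in CTR, and was lost only without CTR replicate 2 or Igf-1 replicate 2. cyb5a, the electron donor of fatty acid desaturases, had 1884, 2384 and 2419 in the Igf-1 libraries, against 4565, 4469 and 7080.1 in the CTR libraries (log2 fold change -1.27 ± 0.20, adjusted p = 0.0383), and passed in 3 of the 9 fits, being lost without AA replicate 1, CTR replicates 1 or 2 or any Igf-1 replicate. The endothelial lipase lipg and sptlc2b, of sphingolipid synthesis, had log2 fold changes of -0.92 ± 0.14 and -0.73 ± 0.12 (adjusted p = 0.0302 and 0.0491 with edgeR), short of the fold threshold. Of the 35 tested genes of fatty acid synthesis and storage, elovl7a was the only one past the adjusted p, 5 were lower and 0 higher at the unadjusted p, and the median was -0.26. Without CTR replicate 3 the median was -0.46, and 16 genes instead of 6 had all Igf-1 libraries below CTR (45.7%, against 17.2% of all genes). ACLY, which supplies acetyl-CoA for lipid synthesis, and plin2, a coat protein of lipid droplets, stood at -1.06 ± 0.23 and -1.05 ± 0.27 with adjusted p-values of 0.0967 and 0.159.

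The upregulated tat and hpdb encode enzymes of successive steps of tyrosine breakdown, and no amino acid transporter passed. tat had 1075, 1279 and 1379 in the Igf-1 libraries, against 432, 579 and 502 in the CTR libraries (log2 fold change 1.30 ± 0.18, adjusted p = 0.0184), and hpdb had 4832, 6551 and 6149 in the Igf-1 libraries, against 2282, 2090.3 and 1754 in the CTR libraries (log2 fold change 1.52 ± 0.17, adjusted p = 0.0108), without overlap in either. tat was lost without AA replicate 1, CTR replicates 1 or 2 or any Igf-1 replicate (adjusted p up to 0.144), and hpdb without CTR replicate 2 or Igf-1 replicates 2 or 3 (up to 0.0857). Of 37 tested amino acid transporters none passed the adjusted p, 8 were lower and 0 higher at the unadjusted p, and DESeq2 called 5 lower and 0 higher. Igf-1 was below all CTR libraries in 9 of them (24.3%, against 7.88% of all genes) and above in none, with a median of -0.29. Without CTR replicate 3 it was below in 18 (48.6%, against 17.2% of all genes), with a median of -0.34. slc38a4, a carrier of neutral amino acids, had 15307, 12965 and 15265 in the Igf-1 libraries, against 27786, 44962 and 26187 in the CTR libraries (log2 fold change -1.18 ± 0.22, adjusted p = 0.0608). slc7a5 and slc3a2a, the light and the heavy chain of a leucine exchanger, stood at -0.71 ± 0.19 and -0.50 ± 0.14, and slc6a15 at -0.78 ± 0.19. The 36 tested genes of the amino acid response had none past the adjusted p, 8 lower and 0 higher at the unadjusted p, 2 lower and 0 higher with DESeq2, and a median of -0.20.

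Nucleotide and polyamine genes, 33 tested, likewise had none past the adjusted p, and 10 were lower and 1 higher at the unadjusted p (3 and 1 with DESeq2). Igf-1 was below all CTR libraries in 13 of the 33 (39.4%, against 7.88% of all genes) and above in 1, with a median of -0.22. Without CTR replicate 3 it was below in 17 (51.5%, against 17.2% of all genes) and above in 5, with a median of -0.23. odc1, which makes the first polyamine, had 541, 568 and 444 in the Igf-1 libraries, against 783, 996 and 1067 in the CTR libraries (log2 fold change -0.87 ± 0.16, adjusted p = 0.0621), and azin1b, which protects it, was at -0.62 ± 0.14. adss1, the muscle form of a purine enzyme, had a positive value, 1.11 ± 0.23 (adjusted p = 0.0883 with edgeR).

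Ribosomal protein genes and translation factors showed no direction that held without CTR replicate 3. The median log2 fold change of 82 ribosomal protein genes was -0.10 with all libraries and 0.23 without that replicate. By library, relative to the CTR mean, the median was -0.22, 0.04 and 0.04 in the Igf-1 libraries, against -0.16, -0.40 and 0.57 in the CTR libraries, so a single CTR library lay above the other 5. The same change of sign was seen in translation factors (53 genes, -0.07 and 0.16), the proteasome (51, -0.02 and 0.21), oxidative phosphorylation (102, -0.07 and 0.23) and the mitochondrial ribosome (73, -0.10 and 0.15). In these 5 lists 0 genes passed the adjusted p of edgeR in either direction. At the unadjusted p 1, 2, 1, 0 and 0 genes were higher and 0, 1, 2, 2 and 0 lower, in the order given, and DESeq2 called 1 translation factor. Of 89 genes of ribosome biogenesis 0 passed, 6 were lower and 1 higher at the unadjusted p, and DESeq2 called 2 lower and 0 higher. Their median was -0.22, or -0.06 without CTR replicate 3, and stayed negative with any 1 library left out. Without overlap 14 lay lower (15.7%, against 7.88% of all genes) and 0 higher. Without CTR replicate 3, 17 lay lower (19.1%, against 17.2% of all genes) and 4 higher. pprc1, a coactivator of genes of the mitochondrion, was lower at the adjusted p and short of the fold threshold (log2 fold change -0.80 ± 0.14, adjusted p = 0.0483).

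In carbohydrate metabolism, PGM1, which interconverts the glucose phosphates of glycogen metabolism, had 948, 1187 and 1243 in the Igf-1 libraries, against 457, 470.3 and 523 in the CTR libraries (log2 fold change 1.22 ± 0.21, adjusted p = 0.0483) and was upregulated, though in only 2 of the 9 fits with 1 library left out, those without AA replicates 2 or 3. prkag3b, by its symbol a gamma subunit of AMP-activated protein kinase, had 1948, 1734 and 1692 in the Igf-1 libraries, against 985, 851 and 794 in the CTR libraries (log2 fold change 1.03 ± 0.15, adjusted p = 0.0211), and passed in 3 of the 9 fits, its log2 fold change being under 1 without CTR replicate 3 or Igf-1 replicate 1 and its adjusted p above 0.05 without CTR replicate 2, AA replicate 1 or any Igf-1 replicate. Among the 59 tested genes of glucose use, PGM1 was the only one past the adjusted p, with 4 higher and 7 lower at the unadjusted p and a median of -0.0014 (0.11 without CTR replicate 3). The kinase genes pdk2a, which holds back pyruvate oxidation, and pfkfb3, which promotes glycolysis, stood at -0.75 ± 0.13 and -0.86 ± 0.18 with adjusted p-values of 0.0506 and 0.0974. SLC2A4, the insulin-responsive glucose carrier of mammals, was chosen after its values were seen and stood at -1.16 ± 0.31.

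Matrix genes and growth factors moved in both directions. ogna, a small proteoglycan of the matrix, had 14140.3, 12419 and 11068 in the Igf-1 libraries, against 4953, 3611 and 1868 in the CTR libraries (log2 fold change 1.85 ± 0.31, adjusted p = 0.0448). sulf2a, which removes sulfate from heparan sulfate chains, and arsj, another sulfatase, were upregulated at 1.26 ± 0.21 and 1.10 ± 0.18 (adjusted p = 0.0448 and 0.0448 with edgeR), and both passed only in the fit without AA replicate 3 when 1 library was left out. hgfb, the hepatocyte growth factor that activates muscle stem cells in mammals, had 537, 507 and 630.2 in the Igf-1 libraries, against 228, 227 and 222 in the CTR libraries (log2 fold change 1.31 ± 0.21, adjusted p = 0.0403), its CTR libraries nearly equal. angpt2b, a ligand of the Tie2 receptor of blood vessels, had 1436, 1496 and 1900.2 in the Igf-1 libraries, against 806, 555 and 707 in the CTR libraries (log2 fold change 1.22 ± 0.19, adjusted p = 0.0302). tnfrsf19, a receptor of the tumor necrosis factor family, stood at 1.01 ± 0.14 (adjusted p = 0.0184). When 1 library was left out, ogna, hgfb, angpt2b and tnfrsf19 passed in 4, 2, 2 and 3 of the 9 fits, all failing without CTR replicate 2, AA replicate 1 or any Igf-1 replicate, hgfb and angpt2b also without CTR replicates 1 or 3, and tnfrsf19 without CTR replicate 3, where its log2 fold change was under 1. The list of collagens and matrix, 144 genes, had 1 higher and 1 lower (ogna and ccn5), 22 and 16 at the unadjusted p, and a median of 0.06. thbs1b, a thrombospondin, had 712, 528 and 477 in the Igf-1 libraries, against 2036, 4319 and 1489 in the CTR libraries (log2 fold change -2.19 ± 0.46, adjusted p = 0.0920). tnc and inhbb, chosen after their values were seen, were at 1.27 ± 0.28 and -1.39 ± 0.29. Each name is carried by more than 1 gene. The other INHBB (ENSSAUG00010019229) stood at -0.94 ± 0.41 (adjusted p = 0.530 with edgeR), and the other tnc gene is not reported here.

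Genes known from blood vessels were divided: edn1 and plvapb lower, angpt2b higher. Of 15 tested endothelial markers 6 had all Igf-1 libraries above all CTR libraries (40.0%, against 9.35% of all genes). In 2 they lay below (13.3%, against 7.88% of all genes). The median was 0.42 (0.71 without CTR replicate 3). Their summed counts were lower with Igf-1 in all 3 libraries with plvapb and higher in all 3 without it. The receptor gene kdr had 498, 478 and 559 in the Igf-1 libraries, against 169.9, 262 and 169 in the CTR libraries (log2 fold change 1.35 ± 0.24, adjusted p = 0.0537), and the adhesion protein gene esama was at 1.03 ± 0.27 (adjusted p = 0.167). The part of such cells in the results was not tested. cav2, of the caveolin family, had 260.2, 209.6 and 277 in the Igf-1 libraries, against 476, 1026 and 436 in the CTR libraries (log2 fold change -1.38 ± 0.37, adjusted p = 0.194), while the muscle caveolin CAV3 stood at 0.37 ± 0.17. vegfab, a growth factor of vessels chosen after its values were seen, was at -0.97 ± 0.18.

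Of the 46 genes, 10 carry no symbol. Beside those already given, ENSSAUG00010015644, described as similar to inositol monophosphatase 1, had 1905, 1994 and 2501 in the Igf-1 libraries, against 8918, 8598 and 12077 in the CTR libraries (log2 fold change -2.21 ± 0.30, adjusted p = 0.0175). ENSSAUG00010016653, described as a receptor of the relaxin family, and ENSSAUG00010005600, described as synaptotagmin like 1, were downregulated at -1.64 ± 0.23 and -1.79 ± 0.30, the second passing in 1 of the 9 fits with 1 library left out, that without AA replicate 3. ENSSAUG00010011195, described as similar to DENN domain-containing protein 2A, was upregulated at 1.50 ± 0.17. It, the monophosphatase and the relaxin receptor were lost without CTR replicate 2 or any Igf-1 replicate. The 3 others have no description. ENSSAUG00010024120 had 33.2, 20.4 and 29.9 in the Igf-1 libraries, against 233, 411 and 442 in the CTR libraries (log2 fold change -3.69 ± 0.37, adjusted p = 0.00568), the largest fall among the 46, and passed in 7 of the 9 fits, those without CTR replicate 2 and without Igf-1 replicate 2 excepted. ENSSAUG00010000777 had deposited counts of 79, 56 and 83 in the Igf-1 libraries, against 0 in all 3 CTR libraries. Set against 12 counts over the CTR group, which stand for 3 read pairs, its level was at least 14.8-fold higher with Igf-1, and its call was lost without CTR replicates 1 or 2 or any Igf-1 replicate.

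The last of the 3, ENSSAUG00010002982, is listed as a long non-coding RNA (lncRNA). The authors' FPKM of it was 0.412, 0.368 and 0.242 in the Igf-1 libraries, against 4.77, 4.42 and 0.932 in the CTR libraries, CTR replicate 3 being much nearer to Igf-1 than the other 2 (log2 fold change -3.24 ± 0.53, adjusted p = 0.0446). It passed in 3 of the 9 fits, those without CTR replicate 3, AA replicate 2 or AA replicate 3. Of 1489 listed lncRNAs 401 were tested, and it was the only one past the adjusted p. At the unadjusted p 17 were higher and 15 lower, and DESeq2 called 4 higher and 6 lower. The Igf-1 libraries lay above all CTR libraries in 10.2% and below in 5.74% of the tested lncRNAs, against 9.35% and 7.88% of all genes.

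Igf-1 and AA were each set against the same CTR libraries, so their values share that error, and they are given side by side without a test of likeness. igfbp6a stood at -2.85 ± 0.23 with Igf-1 and -4.45 ± 0.25 with AA over CTR. The downregulated ccn5, edn1 and plvapb stood at -2.70, -2.66 and -2.13 with Igf-1 and at -3.62 ± 0.36, -4.05 ± 0.37 and -3.66 ± 0.29 with AA. Among the upregulated genes, hhatla, usp28 and myl1 had values of 2.59, 1.98 and 1.68 with Igf-1 and of 4.70 ± 0.28, 3.29 ± 0.20 and 3.82 ± 0.28 with AA. tat, prkag3b and rcan1a were at 1.30, 1.03 and -1.57 with Igf-1 and at 1.00 ± 0.18, 0.94 ± 0.15 and -1.06 ± 0.20 with AA. Over the sarcomere list the median was 0.43 with Igf-1 and 1.08 with AA. In the direct contrast of Igf-1 with AA, which does not involve CTR, 14 of the 46 genes passed the same thresholds. The share of all genes tested that passed in this contrast is not given here, and the 46 were picked with the same Igf-1 libraries. The count is therefore not a result about these genes.

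Other genes that the study follows by qPCR or by name did not pass the threshold. The reference genes rps18 and tomm20b stood at -0.11 ± 0.31 and -0.21 ± 0.24. rps18 had 113412, 135224 and 133413 in the Igf-1 libraries, against 116896, 97391 and 197249 in the CTR libraries, with the highest value of all in CTR replicate 3. cpt1b, the gate of fatty acid oxidation in muscle, had 232, 222 and 285 in the Igf-1 libraries, against 531, 531 and 667 in the CTR libraries (log2 fold change -1.23 ± 0.30, adjusted p = 0.142) and wnt4 stood at -0.67 ± 0.26, without overlap but short of the threshold. H2AZ1, psmb3, tcima, nupr1a and rgcc lay between -0.41 and 0.56 on the log2 scale, and none had an adjusted p under 0.662.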

How the data were processed

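RNA was taken from 3 libraries each of Igf-1, CTR and AA cells and prepared with a stranded poly(A) kit. The authors mapped the reads with HISAT2 to an Ensembl genome of sea bream, the build of which is not given in the sources used here, and estimated expression with StringTie; how strand was used in counting is not stated. The deposited table is named normalized, but its library totals differ (48725967 to 67887824) and its values peak at 4, 8 and 12, so it was taken to hold estimated counts, about 4 per read pair, and the deposited estimated counts, already whole, were used as they are. The comparison had been planned for plain counts. The deposited FPKM values, with 0.0001 in place of 0, were printed for 1 lncRNA. The deposited fold changes, p-values and q-values were not used.

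Genes were filtered with filterByExpr, scaled by TMM (factors 0.791 to 1.21) and fitted as 3 groups with the quasi-likelihood test of edgeR 4.0.16 in R 4.3.3 (common dispersion 0.115, prior degrees of freedom 4.30), with Benjamini-Hochberg adjustment over the 17687 genes tested. Standard errors were computed as the absolute log2 fold change over the root of F. The fit was run on simulated counts with known changes. These were drawn with a lower dispersion than that of the data, so the run does not show how the fit performs at the spread of these libraries. A lower bound of a fold takes 12 counts over a group at 0.

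Described were all genes past both thresholds, the 3 members of each of 40 lists with the smallest p, members of the Igf system with a mean normalized count of at least 50, and genes that the study names; others are marked as chosen after their values were seen. A few genes that these rules name are not reported here. The members and lists were chosen with earlier results of these data known. Lists were described by counts and medians, without a set test. Gene symbols and descriptions are those of the deposited tables, and no sequence or coordinates were used.

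The alternatives were median-ratio (RLE) size factors, DESeq2 1.42.0, no filter, a fit of Igf-1 and CTR alone, the replicate number as a block and each of the 9 libraries left out in turn, and, as additions made with the data already seen, counts divided by 4, the counts of non-overlapping genes without CTR replicate 3 and the endothelial marker sum without plvapb.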

Additional observations from a re-analysis of the deposited data

How the results depend on the processing

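The number of genes past the adjusted p and the fold threshold was 25 higher and 21 lower with Igf-1. With RLE size factors it was 23 and 24. DESeq2 gave 125 and 83, no filter 34 and 35, the fit of Igf-1 and CTR alone 7 and 14, and counts divided by 4, an alternative chosen after the data were seen, 32 and 34. With 1 library left out the counts ranged from 0 to 31 higher and from 1 to 28 lower. For the adjusted p alone, 26 higher and 24 lower, the values were 25 and 27 with RLE size factors, 251 and 237 with DESeq2, 37 and 39 without the filter, 7 and 14 with Igf-1 and CTR alone, and 38 and 42 with counts divided by 4. They ranged from 0 to 36 and from 1 to 35 with 1 library left out.

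With the replicate number as a block, 0 genes were higher and 0 lower at either threshold of edgeR, and 804 were higher and 561 lower at an unadjusted p under 0.05; DESeq2 was run without the block only. The labels number the libraries without tying a number to a culture. For that reason the main fit had no block. The deviations of same-numbered Igf-1 and CTR libraries from their group means correlated at 0.218, -0.005 and 0.192 across genes. Those of differently numbered Igf-1 and CTR libraries correlated at -0.215 to 0.071. In pairs with an AA library the values were -0.390 to 0.130 with the same number and -0.315 to 0.401 with different numbers. The deviations within a group cancel by construction, so these correlations are not independent of each other. Whether same-numbered libraries share a culture cannot be told from these values, and if they do, the fit with the block is the one that respects it. The fit with the block has fewer residual degrees of freedom, and the cause of the loss of calls was not tested.

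Of the 213 genes with values here, none that passed in the main fit or in an alternative had the opposite sign in the other. A gene that passes lies far from no change, so this leaves little room for a reversal. No alternative moved the median of all genes by more than 0.0215. Each fit scales the libraries to a common level, which holds that median in place, so the small shift is not a test of the results. Of the 46 genes past both thresholds, all 46 were lost with the block, 45 without CTR replicate 2, 39, 43 and 39 without Igf-1 replicates 1, 2 and 3, 26 with Igf-1 and CTR alone, 23 without AA replicate 1, 18 without CTR replicate 1, 11 without CTR replicate 3, 4 and 1 without AA replicates 2 and 3, 2 with RLE size factors and 1 with DESeq2. The cause was not tested. A gene with few read pairs, such as mybl2b, is measured with less precision.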

Other observations

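Some gene groups outside the comparisons above had more members apart between the groups than the 9.35% higher and 7.88% lower of all genes tested. Of 32 tested genes of the interferon response, 5 had all Igf-1 libraries above all CTR libraries (15.6%) and 0 below, with a median log2 fold change of 0.33 (0.31 without CTR replicate 3). None passed the adjusted p of edgeR or DESeq2, and 3 were higher at the unadjusted p. dhx58, a sensor of viral RNA, had 2424, 2361 and 2625 in the Igf-1 libraries, against 1479, 2002 and 1304 in the CTR libraries (normalized counts; log2 fold change 0.63 ± 0.19, adjusted p = 0.253). Of 31 tested subunits of the v-ATPase, the proton pump of lysosomes, and of the Ragulator, which anchors mTOR complex 1 there, 10 had all Igf-1 libraries below all CTR libraries and 1 above. Their median was -0.21, and -0.05 without CTR replicate 3, and none passed the adjusted p (5 lower and 1 higher unadjusted, 1 lower and 0 higher with DESeq2). Of 38 genes of fatty acid uptake and oxidation 8 lay lower and 2 higher without overlap. acadvl, an enzyme of mitochondrial fatty acid oxidation, had 7329, 7329 and 8108 in the Igf-1 libraries, against 10964, 14647 and 12869.6 in the CTR libraries (log2 fold change -0.76 ± 0.15, adjusted p = 0.0829).

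Among the other lists, heat shock and redox genes included hspb6, a small heat shock protein of muscle, at 1.41 ± 0.41 on the log2 scale, and the subunits gclc and gclm of the enzyme of glutathione synthesis at -0.71 ± 0.17 and -0.46 ± 0.16, with adjusted p-values of 0.223, 0.144 and 0.357 from edgeR. In the Wnt list the antagonist dkk2 had 973, 1307 and 1500.3 in the Igf-1 libraries, against 2452, 3229 and 2365 in the CTR libraries (log2 fold change -1.09 ± 0.21, adjusted p = 0.0650). In the autophagy list the kinase ulk1a stood at 0.67 ± 0.17 (adjusted p = 0.167). Of the tRNA synthetases tars1 and yars1 were at -0.28 ± 0.15 and -0.21 ± 0.13, both with adjusted p-values above 0.05.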
